A study of Mus musculus with 8 samples.

Results

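Transcripts of 10 neutrophil granule genes were followed in the prostate of mice with and without *Olfm4*: *S100a8*, *S100a9*, *Ltf*, *Lcn2*, *Camp*, *Mpo*, *Elane*, *Ngp*, *Mmp8* and *Mmp9*. The rule took each probe set annotated to one of these symbols which gave 11 probe sets of the 45037 tested, since *Mmp9* has a pair of them. On the gene scale these were 10 of 18193 genes. *Olfm4* was set beside them because its product, olfactomedin 4, is itself a protein of neutrophil specific granules.

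The study asked what the loss of *Olfm4* does to the mouse prostate. Genome-wide Affymetrix mouse arrays measured RNA of 4 *Olfm4*-knockout and 4 wild-type animals aged 3 months, and the labels number the arrays of each genotype from 1 to 4. By their labels the arrays fall on 2 days that each took 2 of either genotype: day 1 held knockout arrays 3 and 4 and wild-type arrays 1 and 4, and day 2 held the others. The deposited values were log2 values made by the authors with RMA (robust multi-array average), a method that corrects background, normalises arrays to each other and combines the probes of a probe set. Both genotypes shared a mixed background of National Institutes of Health Black Swiss and 129/SV, 50% each. The knockout is a germline loss in every cell of the animal, kept by crossing heterozygous mice, so a prostate of a knockout mouse holds leukocytes without *Olfm4* as well as epithelium without it. The prostate was taken whole, with all its lobes, stroma, vessels and resident leukocytes, and in such bulk RNA fewer cells of a type and less RNA per cell cannot be told apart. Array medians ranged from 6.03 to 6.09 and correlations between arrays from 0.983 to 0.996.

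Neutrophils build their granules in turn while they mature in bone marrow. Azurophil granules come first and hold myeloperoxidase and serine proteases, specific granules follow with lactoferrin, lipocalin 2, the cathelicidin precursor and collagenase, and gelatinase granules come last. S100A8 and S100A9 together form calprotectin, the main cytosolic protein of neutrophils. Several of the same genes are also read outside neutrophils: lactoferrin and lipocalin 2 are secreted by many glandular epithelia, calprotectin is made by stressed squamous epithelium and by monocytes, and matrix metalloproteinase 9 is made by macrophages.

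Granule genes are known to share control by C/EBP transcription factors. Of the genes followed here, *S100a8*, *S100a9*, *Ltf* and *Lcn2* varied widely between the arrays, while *Camp* and *Ngp* varied little. For these reasons the sequences before the start sites are shown for *Olfm4* and for these 6 genes. Each is the 250 bases before the annotated start, 5′ to 3′ on the strand of the gene, from RefSeq on GRCm38.p6: *Olfm4* at chr14:80000052-80000301, plus strand, *S100a8* at chr3:90668821-90669070, plus strand, *S100a9* at chr3:90695722-90695971, minus strand, *Ltf* at chr9:111019042-111019291, plus strand, *Lcn2* at chr2:32387740-32387989, minus strand, *Camp* at chr9:109849457-109849706, minus strand and *Ngp* at chr9:110419558-110419807, plus strand. Capitals mark matches to the C/EBP letters TTNNGNAA on either strand.
Olfm4: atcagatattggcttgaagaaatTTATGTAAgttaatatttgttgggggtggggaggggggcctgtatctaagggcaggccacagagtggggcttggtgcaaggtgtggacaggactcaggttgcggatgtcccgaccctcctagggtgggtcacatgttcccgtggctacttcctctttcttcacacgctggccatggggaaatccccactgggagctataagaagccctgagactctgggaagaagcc
S100a8: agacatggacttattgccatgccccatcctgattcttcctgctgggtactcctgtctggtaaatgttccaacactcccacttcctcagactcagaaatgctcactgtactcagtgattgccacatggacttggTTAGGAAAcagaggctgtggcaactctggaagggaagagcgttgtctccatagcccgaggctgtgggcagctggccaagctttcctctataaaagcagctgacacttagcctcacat
S100a9: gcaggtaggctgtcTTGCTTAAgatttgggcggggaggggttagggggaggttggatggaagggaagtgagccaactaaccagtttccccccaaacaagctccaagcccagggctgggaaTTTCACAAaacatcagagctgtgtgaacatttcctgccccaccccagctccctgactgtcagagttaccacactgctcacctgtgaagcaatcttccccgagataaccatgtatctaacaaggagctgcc
Ltf: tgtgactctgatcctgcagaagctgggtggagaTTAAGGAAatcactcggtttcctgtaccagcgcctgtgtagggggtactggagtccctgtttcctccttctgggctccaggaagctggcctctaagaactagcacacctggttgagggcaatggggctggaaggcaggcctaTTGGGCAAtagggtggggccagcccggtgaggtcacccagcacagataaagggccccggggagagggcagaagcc
Lcn2: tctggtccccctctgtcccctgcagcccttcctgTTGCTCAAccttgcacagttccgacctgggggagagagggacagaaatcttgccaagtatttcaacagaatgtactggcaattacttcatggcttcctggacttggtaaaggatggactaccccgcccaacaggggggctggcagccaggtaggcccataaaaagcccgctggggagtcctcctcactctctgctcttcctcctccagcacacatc
Camp: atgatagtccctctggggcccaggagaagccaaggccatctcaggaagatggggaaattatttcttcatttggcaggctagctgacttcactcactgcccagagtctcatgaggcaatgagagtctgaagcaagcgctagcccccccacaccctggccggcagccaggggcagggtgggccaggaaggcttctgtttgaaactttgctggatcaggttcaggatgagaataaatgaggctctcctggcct
Ngp: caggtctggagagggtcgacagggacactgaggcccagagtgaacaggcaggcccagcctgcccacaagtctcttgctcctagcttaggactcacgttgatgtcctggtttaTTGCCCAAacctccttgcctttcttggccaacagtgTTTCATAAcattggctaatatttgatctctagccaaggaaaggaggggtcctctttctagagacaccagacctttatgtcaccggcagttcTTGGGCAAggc

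The letters TTNNGNAA stood in 36.8% of 32851 mouse promoter windows of this length, and in 6 of the 9 granule genes that were matched in the table. *Ngp* held 3 matches, *S100a9*, *Ltf* and *Mmp8* held 2 each, and *S100a8* and *Lcn2* held 1 each, as did *Olfm4*. *Camp*, *Mpo* and *Elane* held none in this window. The core of the PU.1 motif, GAGGAA, was present in 23.3% of all windows and in 6 of the 9, namely *S100a8*, *Ltf*, *Lcn2*, *Mmp8*, *Mpo* and *Elane*. The short NF-kB element GGGAA was present in 56.2% of all windows and in 4 of the 9, with 4 matches before *S100a9* and 1 each before *S100a8*, *Camp* and *Mpo*. Both were searched on either strand, and their letters can share bases with each other. *Olfm4* held 1 PU.1 core and 3 NF-kB elements. Of the genes that varied little, *Ngp* thus held the most matches to the C/EBP letters and *Camp* held none. The genes that varied widely or little were picked from the values of these same arrays. *Camp* had a mean log2 value of 3.97, where a probe set may read little transcript, so its narrow spread says nothing of how the gene varies. Whether the C/EBP letters go with the spread was not tested. The gene order also brought members together. *S100a8* and *S100a9* are neighbours on chromosome 3 with 0 protein-coding genes between them, while on chromosome 9 *Camp* and *Ngp* were separated by 8 such genes and *Ngp* and *Ltf* by 20.

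*Olfm4* itself was read at log2 values of 3.09, 3.00, 3.25 and 3.09 on knockout arrays 1 to 4 and at 10.32, 10.23, 10.74 and 10.65 on wild-type arrays 1 to 4. The genotypes were far apart on every array, and each label matched the genotype. The knockout mean was 3.11 ± 0.10 and the wild-type mean 10.48 ± 0.25 (SD, n = 4 each). *Olfm4* fell by 7.37 on the log2 scale (SE 0.13, 95% interval -7.68 to -7.07, limma adjusted p = 1.79e-06), and the log2 fold change was -7.31 within day 1 and -7.44 within day 2.

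None of the 11 probe sets of the granule companions passed the same test. Counted at an adjusted p under 0.05, 0 of 11 were called, where 50 of all 45037 probe sets (0.111%) were. At an unadjusted p under 0.05 there was 1 of 11, *S100a9*, beside 12.8% of all probe sets. In 0 of 11 did the arrays of the genotypes separate without overlap, beside 8.72% of all probe sets. Mean values were higher in knockout prostate for 8 of the 10 genes and lower for *Camp* and *Ngp*. The median log2 fold change over the 10 genes was 0.30, with a range from -0.14 to 1.22, and that of all genes was -0.01. Without the arrays numbered 1 of both genotypes, the median of the 10 genes was 0.06.

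**Figure D1:**
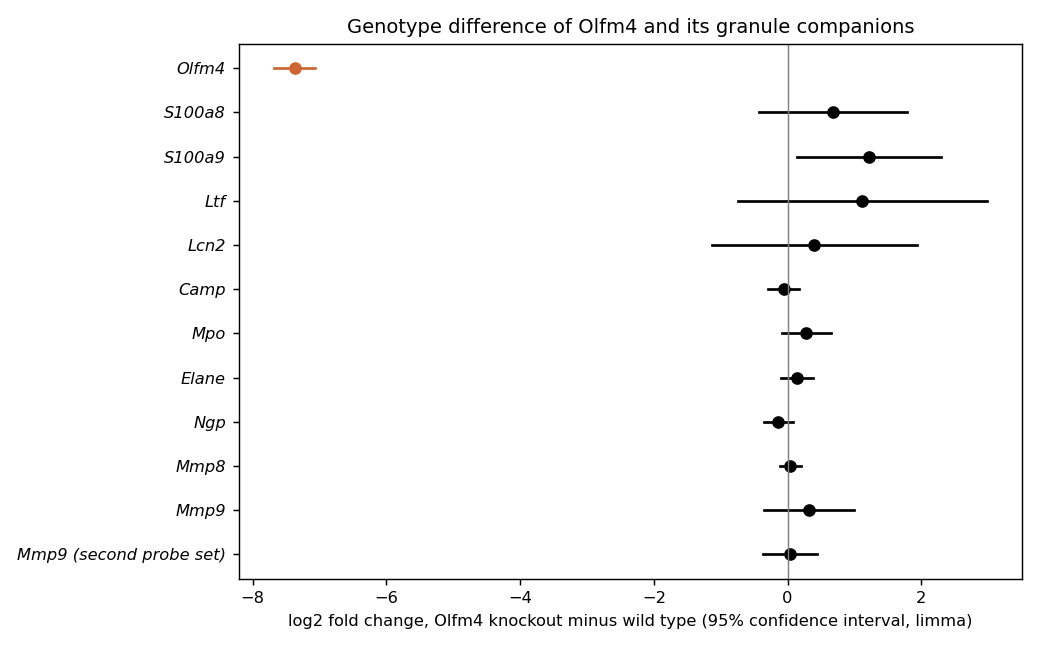
Log2 fold change (*Olfm4* knockout minus wild type) of *Olfm4* and of the 11 probe sets of 10 neutrophil granule genes, with 95% intervals from limma, 4 arrays per genotype. *Olfm4* sits at -7.37, while the interval of each granule probe set except *S100a9* includes 0, and the widest interval is that of *Ltf*.

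Of the 11 probe sets, that of *S100a9*, which encodes a chain of calprotectin, had the lowest p. *S100a9* (probe set 1448756_at) was read at 7.28, 5.50, 5.23 and 6.97 on knockout arrays 1 to 4 and at 4.82, 5.07, 5.30 and 4.92 on wild-type arrays 1 to 4. Knockout arrays 1 and 4 were high, and knockout array 3 lay below wild-type array 3, so the groups overlapped. The means were 6.24 ± 1.03 in knockout and 5.03 ± 0.21 in wild-type prostate (SD, n = 4 each). The log2 fold change was 1.22 (95% interval 0.14 to 2.29, unadjusted p = 0.0318, limma adjusted p = 0.346), and it was 1.23 within day 1 and 1.20 within day 2. This difference did not pass the test over all probe sets. It was 0.86 without knockout array 1 (unadjusted p = 0.0777 by limma) and 0.86 without knockout array 4 (unadjusted p = 0.0856 by limma), and leaving out any 1 wild-type array gave differences of 1.17 to 1.27 with unadjusted p from 0.0570 to 0.0712 by limma. It was 1.57 without knockout array 2 (unadjusted p = 0.0088 by limma) and 1.56 without knockout array 3 (unadjusted p = 0.0098 by limma).

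*S100a8* (1419394_s_at), which encodes the partner chain, was read at 7.20, 5.33, 5.24 and 6.10 in knockout prostate and at 6.08, 5.01, 5.02 and 5.05 in wild-type prostate. Array 1 was the highest in both genotypes, and wild-type array 1 lay level with knockout array 4. The log2 fold change was 0.68 (95% interval -0.43 to 1.78, limma adjusted p = 0.597), and it was 0.11 within day 1 and 1.25 within day 2. Without knockout array 1 it was 0.19. The heterodimer's chains thus did not share the wild-type array that stood high: *S100a9* on wild-type array 1 was the lowest of its group. On the linear scale the interval for *S100a8* ran from 0.745 to 3.44 times the wild-type level. A level in knockout prostate of up to 3.44 times that of wild type was thus not excluded with 4 arrays per genotype.

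Both secreted proteins of specific granules that bind iron, or its carriers, varied still more. Lactoferrin, the iron-binding product of *Ltf* (1450009_at), had values of 9.38, 5.68, 6.47 and 6.27 in knockout prostate and of 6.82, 5.78, 5.34 and 5.37 in wild-type prostate. Knockout array 1 stood far above all others, wild-type array 1 came next, and the remaining 6 arrays were mixed between the genotypes. The log2 fold change was 1.12 (95% interval -0.74 to 2.98, limma adjusted p = 0.605). Within day 1 it was 0.28 and within day 2, which held knockout array 1, it was 1.97. Leaving out 1 array at a time gave 0.21 without knockout array 1 and up to 1.69 without knockout array 2, with 1.58 without wild-type array 1, and array weights gave 0.65.

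*Lcn2* (1427747_a_at), whose product captures bacterial siderophores, was read at 13.29, 10.28, 10.95 and 10.70 in knockout prostate and at 11.79, 10.81, 10.59 and 10.44 in wild-type prostate. It repeated the order of *Ltf* at the top, with knockout array 1 first and wild-type array 1 second, and the other arrays overlapped. The log2 fold change was 0.40 (95% interval -1.14 to 1.93, limma adjusted p = 0.843), with -0.29 within day 1 and 1.08 within day 2. Without knockout array 1 the sign turned and the difference was -0.34, so no direction held for *Lcn2*.

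The remaining specific-granule members were flat. *Camp* (1419691_at) encodes the precursor of the antimicrobial cathelicidin peptide, and its values were 4.00, 3.86, 3.85 and 4.04 in knockout prostate against 3.83, 4.23, 4.08 and 3.83 in wild-type prostate. The genotypes differed by -0.06 on the log2 scale (95% interval -0.28 to 0.17, limma adjusted p = 0.853), which on the linear scale spans 0.821 to 1.13 times the wild-type level. *Ngp* (1418722_at), a cathelicidin-related neutrophilic granule protein, was read at 5.66, 5.48, 5.49 and 5.85 against 5.73, 5.74, 5.74 and 5.82, and its log2 fold change was -0.14 (95% interval -0.35 to 0.08, limma adjusted p = 0.587). Knockout arrays 2 and 3 were the lowest for *Ngp*, and knockout array 4 was the highest, so the groups overlapped. *Mmp8* (1449366_at), neutrophil collagenase, ranged only from 3.87 to 4.08 over the 8 arrays, with a log2 fold change of 0.04 (95% interval -0.12 to 0.21).

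The azurophil members were low on all arrays. *Mpo* (1415960_at), the enzyme that makes hypochlorous acid, was read at 4.63, 4.15, 4.31 and 4.25 in knockout prostate and at 3.94, 3.78, 4.12 and 4.37 in wild-type prostate. The genotypes differed by 0.28 on the log2 scale (95% interval -0.08 to 0.65, limma adjusted p = 0.4997), and wild-type array 4 lay above 3 of the knockout arrays. *Elane* (1422928_at), neutrophil elastase, was read at 3.74, 3.74, 3.49 and 3.72 against 3.42, 3.54, 3.43 and 3.74, with a log2 fold change of 0.14 (95% interval -0.10 to 0.37, limma adjusted p = 0.617). Of the 10 genes, *Camp*, *Mpo*, *Elane* and *Mmp8* had means under log2 5 in both genotypes. No detection calls were used, so a low value here is not evidence of transcript. For orientation, 11 genes restricted to retina, lens, enamel or pancreatic islet had means between 3.22 and 6.27 on these arrays, and values of different probe sets cannot be ranked against each other.

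*Mmp9*, the gelatinase that gives the last granule type its name, was measured by 2 probe sets. The brighter (1416298_at) was read at 10.31, 9.21, 8.98 and 8.78 in knockout prostate and at 8.89, 8.89, 8.97 and 9.23 in wild-type prostate, and the other (1448291_at) at 7.53, 6.71, 6.94 and 6.66 against 6.79, 7.10, 6.90 and 6.91. Knockout array 1 was the highest by both probe sets, and the other 7 arrays overlapped. The log2 fold change was 0.32 by the brighter probe set (95% interval -0.35 to 0.99, limma adjusted p = 0.685) and 0.04 by the other (95% interval -0.37 to 0.44, limma adjusted p = 0.954). Without knockout array 1 the brighter probe set gave a difference of 0.00.

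**Figure D2:**
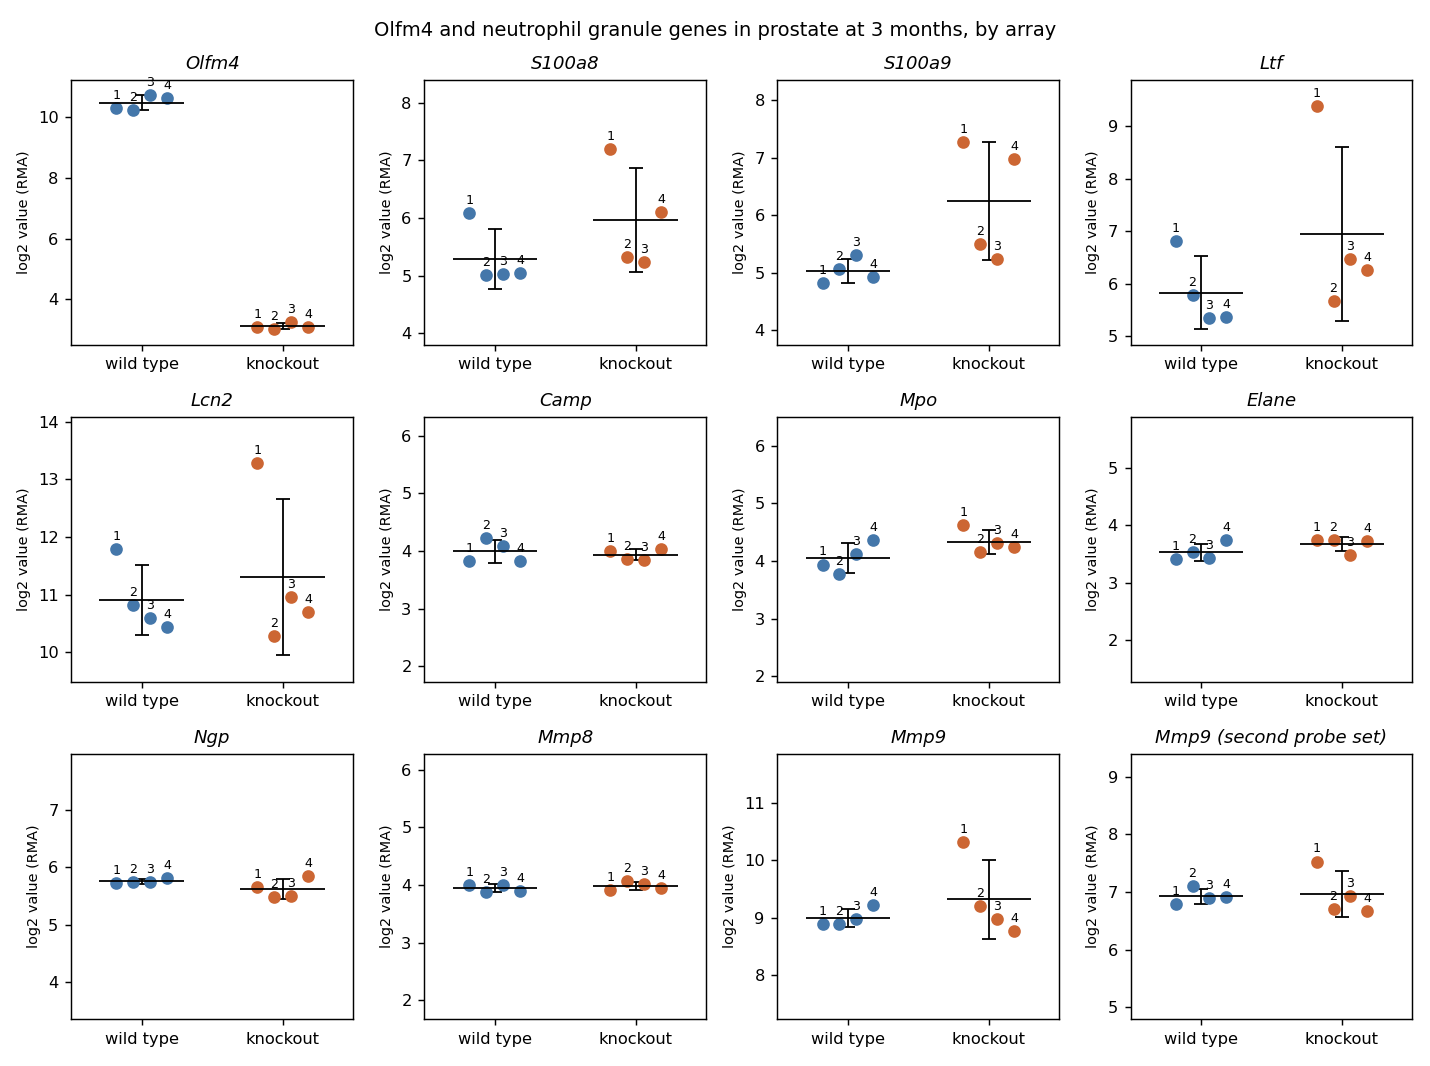
Log2 values (RMA) of *Olfm4* and of the 11 granule probe sets on each of the 8 arrays, numbered as in the labels, wild type in blue and *Olfm4* knockout in orange, with the group mean and SD (n = 4). *Olfm4* separates the genotypes, knockout array 1 is the highest point for *S100a8*, *S100a9*, *Ltf*, *Lcn2* and *Mmp9*, and *Camp*, *Elane*, *Ngp* and *Mmp8* lie in a narrow band. The y axes of the panels differ in position.

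The width of these intervals came from the spread between arrays, each of a separate mouse. After genotype and array day were fitted, the residual SD of *Lcn2* was 1.13 and that of *Ltf* 1.38, larger than for 99.3% and 99.0% of the probe sets within 0.5 log2 of their means. For *S100a8* and *S100a9* the residual SDs were 0.81 and 0.79, larger than for 97.9% and 97.7%, and for the brighter *Mmp9* probe set it was 0.49, larger than for 95.5%. *Camp*, *Ngp* and *Mmp8* were ordinary or tight by this measure, with residual SDs of 0.14, 0.13 and 0.08, larger than for 49.9%, 27.5% and 10.1% of such probe sets.

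Knockout array 1 was the highest array for all 5 of the genes with the widest spread. For *S100a9* knockout array 4 stood nearly as high, 1.34 above the mean of the 8 arrays on the log2 scale beside 1.64 for knockout array 1. Against the mean of the other 3 knockout arrays, knockout array 1 was 9.47-fold higher for *Ltf*, 6.25-fold for *Lcn2*, 3.11-fold for *S100a8*, 2.597-fold for *S100a9* and 2.50-fold for *Mmp9*. Among the same differences over all 18193 genes these lay at percentiles 99.6, 99.3, 98.5, 98.0 and 97.8. For *Mpo*, whose highest array was also knockout array 1, the log2 difference was 0.39, at percentile 88.7. For *Camp*, *Elane*, *Ngp* and *Mmp8* it was 0.08, 0.09, 0.05 and -0.09, at percentiles 67.6, 68.3, 62.2 and 35.0. On wild-type array 1 the log2 difference from the other 3 wild-type arrays was 1.32 for *Ltf*, 1.17 for *Lcn2* and 1.06 for *S100a8*, and it was -0.27 for *S100a9* and -0.14 for *Mmp9*.

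The arrays numbered 1 also held more transcript of seminal vesicle secretory genes, an organ that lies against the prostate. Of the 7 listed genes 6 were measured, and their mean deviation from the 8-array mean was 3.37 on knockout array 1 and 3.71 on wild-type array 1, against -2.55 to -0.40 on the other 6 arrays. Their summed log2 level ranged from 54.2 to 82.8 in knockout and from 47.3 to 84.9 in wild-type prostate. On knockout array 1 *Ltf*, *Lcn2*, *S100a8*, *S100a9* and *Mmp9* were all high. On wild-type array 1 *Ltf*, *Lcn2* and *S100a8* lay 1.32, 1.17 and 1.06 above the mean of the other wild-type arrays on the log2 scale. *S100a9* and *Mmp9* differed there by -0.27 and -0.14. The part of the seminal vesicle transcripts in the granule gene values was not tested. Left out together, both arrays numbered 1 took the log2 fold change of *Lcn2* to -0.02, that of *Mmp9* to -0.04, that of *Ltf* to 0.56, that of *S100a8* to 0.47 and that of *S100a9* to 0.75, none of them called by limma.

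The neutrophil markers were set beside the granule genes on the same arrays. The mean deviation of the 9 markers measured was 0.27 on knockout array 1 and 0.18 on wild-type array 1, and -0.22 to 0.09 on the other arrays. Their summed log2 level was 42.4 to 46.8 in knockout and 43.1 to 46.0 in wild-type prostate. Means of 6 of the 9 lay under log2 5 in both genotypes, which can hold a mean over the list near 0. *Il1r2*, with the widest spread of the 9, weighed heavily in these means. It was read at 9.19 on wild-type array 1, at 6.53 to 9.88 over the wild-type arrays and at 6.74 to 7.58 over the knockout arrays. The defining receptors were low throughout: *Cxcr2*, the receptor for neutrophil chemokines, lay between 2.93 and 3.25 and *Csf3r*, the receptor for granulocyte colony-stimulating factor, between 4.02 and 4.48. *Clec4d*, a lectin receptor of myeloid cells, was 5.55 on knockout array 1 and 3.63 to 4.11 elsewhere. Against the mean of the other 3 knockout arrays, knockout array 1 was higher by 1.56 for *Clec4d*, 0.83 for *Fcgr4*, 0.78 for *Il1r2*, 0.38 for *Stfa2l1* and 0.32 for *Csf3r* on the log2 scale, while the other 4 markers differed by -0.17 to 0.03. The leukocyte markers, with *Ptprc* among them, deviated by 0.14 on knockout array 1, by 0.23 and 0.19 on wild-type arrays 1 and 2, and by -0.39 to 0.06 elsewhere. For the macrophage and monocyte markers these values were 0.23, 0.19 and 0.22, and -0.31 to 0.02 elsewhere. The mast cell markers deviated by 0.32 on knockout array 1, 0.26 on knockout array 4 and -0.53 to 0.17 elsewhere. The luminal markers of the prostate deviated by -0.22 on knockout array 1. Against the other knockout arrays, *Spink1* differed there by -1.40 and the other luminal markers by -0.29 to 0.18.

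The basal epithelium markers deviated by 0.39 on knockout array 4 and by 0.21 on knockout array 1, the arrays on which *S100a9* was high, by 0.15 and -0.06 on knockout arrays 3 and 2, and by -0.41 to 0.00 on the wild-type arrays. Their summed log2 level ranged from 56.1 to 58.3 in knockout and from 54.3 to 56.4 in wild-type prostate. All 5 had higher means in knockout prostate, with a median log2 fold change of 0.21, and 2 were at an unadjusted p under 0.05: *Lgals7*, a galectin of stratified epithelium (0.80, limma adjusted p = 0.152, no overlap between genotypes), and *Krt15*, a basal keratin (0.40, limma adjusted p = 0.313). Neither was called. Over all genes 6.27% were higher at an unadjusted p under 0.05, and 8.72% of all probe sets were without overlap. Against the mean of the other 3 knockout arrays, knockout array 1 was higher for *Krt14* (0.48) and *Lgals7* (0.26). It was not higher for *Krt5* (-0.06), *Krt15* (-0.09) and *Trp63* (-0.36). The part of these cells in the *S100a9* values was not tested.

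**Figure D3:**
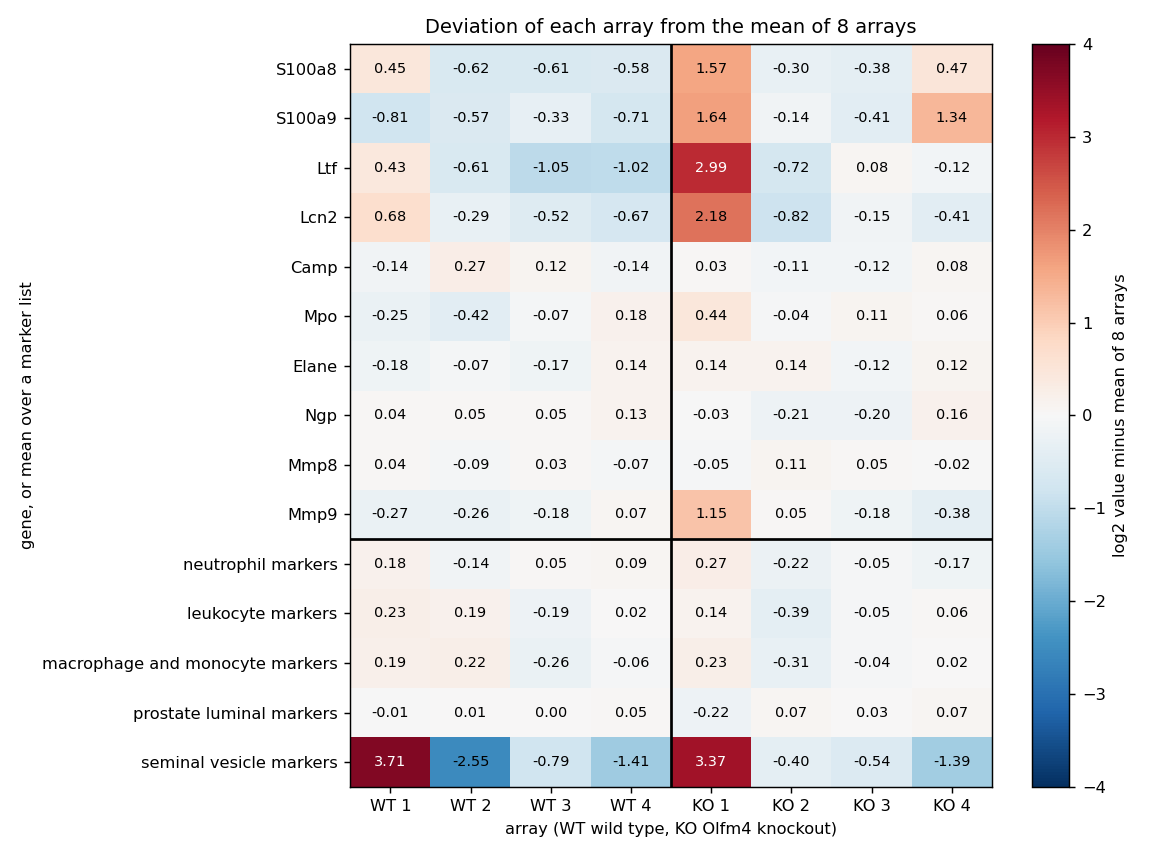
Deviation of each array from the mean of the 8 arrays (log2) for the 10 granule genes and, below the line, for the mean over 5 marker lists, wild-type arrays on the left and knockout arrays on the right. Knockout array 1 stands out for *Ltf* (2.99), *Lcn2* (2.18), *S100a9* (1.64), *S100a8* (1.57) and *Mmp9* (1.15), and the seminal vesicle markers are high on array 1 of both genotypes. The mean over 9 neutrophil markers deviates by at most 0.27. It is not comparable with single genes, since 6 of the 9 had means under log2 5 in both genotypes.

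Across the 8 arrays, 45 pairs of granule genes were compared, with exact 2-sided permutation p-values over all pairings. No pair passed after Benjamini-Hochberg adjustment over the 45. The closest was *Ltf* with *Lcn2*, with Pearson r = 0.966 (permutation p = 0.00129, adjusted 0.058) and Spearman rho = 0.881 (permutation p = 0.00724, adjusted 0.326). Without the 2 arrays farthest from the *Ltf* median, which were those numbered 1, r was 0.686. Within day 1 and day 2, each with 2 arrays per genotype, r was 0.853 and 0.985. Each day held 1 of the arrays numbered 1, so these values do not leave them out. *S100a8* with *S100a9* had r = 0.779 (permutation p = 0.0367, adjusted 0.330) and rho = 0.524 (permutation p = 0.197, adjusted 0.962), and r was -0.409 without knockout arrays 1 and 4, so this relation rested on those arrays.

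Among *S100a8*, *S100a9*, *Ltf*, *Lcn2* and *Mmp9*, a grouping made after their values were seen, r ranged from 0.53 to 0.97 with a median of 0.77. Without knockout array 1 the same 10 pairs ranged from -0.58 to 0.83 with a median of -0.09. The pairs that remained above 0.5 without it were *Ltf* with *Lcn2* (0.826), *S100a8* with *Ltf* (0.760), *S100a8* with *Lcn2* (0.572) and *S100a8* with *S100a9* (0.504). Among the other 5 genes r ranged from -0.68 to 0.59, and for the 25 pairs between the groupings from -0.24 to 0.74, with the highest value for *Mpo* with *Mmp9*. Most of the genes in the second grouping had means under log2 5, where a probe set may read little transcript, so a low r there says nothing of how the genes vary.

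**Figure D4:**
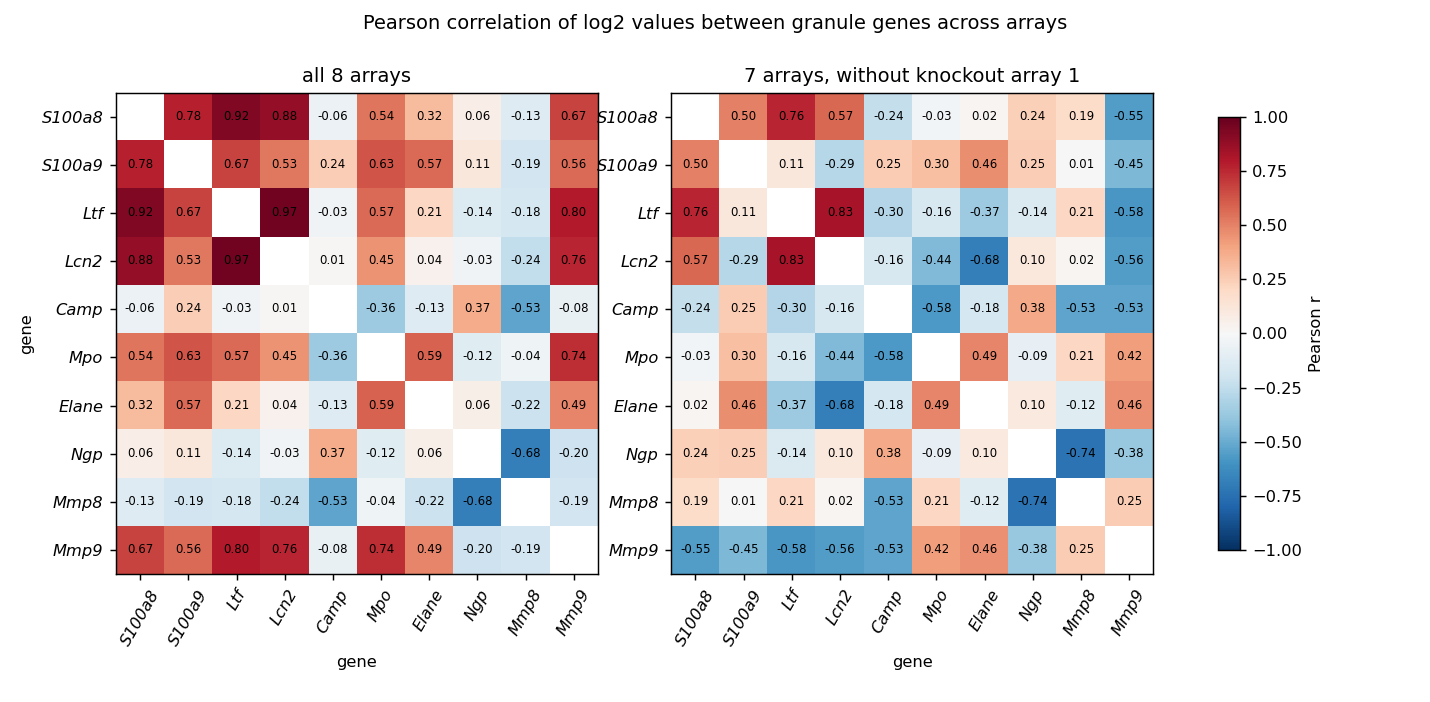
Pearson r of log2 values between each pair of the 10 granule genes, over all 8 arrays on the left and over the 7 arrays without knockout array 1 on the right. The block of positive values among *S100a8*, *S100a9*, *Ltf*, *Lcn2* and *Mmp9* is largely gone on the right, where *Ltf* with *Lcn2* (0.83) and *S100a8* with *Ltf* (0.76) remain and *Mmp9* is negative with the other 4.

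The genes whose values over the 8 arrays were most like the mean of *S100a8* and *S100a9*, among 14295 genes with a mean of at least log2 5, were *Hspa2* (r = 0.982), *Adamts15* (0.979), *Fancf* (0.979), *S100a10* (0.9751), *Rxrb* (0.974), *Rgs6* (0.971), *Ly6d* (0.967) and *Carmil2* (0.964). None is a member or a gene of the neutrophil lists. However, *Camp*, *Mpo*, *Elane*, *Mmp8* and 6 of the 9 neutrophil markers lay under log2 5 and could not appear. Their absence therefore says nothing of the cells that held these transcripts. These values are descriptions over 8 arrays that share knockout array 1. For *Camp* the most alike were *Slc41a3* (0.931), *Miox* (0.924), *Thumpd2* (0.923), *Cox7a2* (0.909) and *Ubqlnl* (0.895), and for *Ngp* they were *Armc6* (0.972), *Ufc1* (0.938), *Nxn* (0.931), *Stra6* (0.923) and *9430078G10Rik* (0.920). These are the highest r among 14297 and 14296 genes over only 8 arrays. *Camp* had a mean log2 value of 3.97, where a probe set may read little transcript, so its likeness to other genes says nothing of how it varies.

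The other genes of the granule programme showed no common shift, but part of their probe sets read low. Means lay under log2 5 in both genotypes for 5 of 9 azurophil genes, *Ctsg* among them, and for 5 of 15 specific granule genes. A probe set may read little transcript there, so a median near 0 says little of those genes. Each gene was represented by its brightest probe set, and of all 18193 genes 31 (0.17%) were called at an adjusted p under 0.05, while at an unadjusted p under 0.05 the knockout was higher for 6.27% and lower for 8.49%. *Olfm4* was the only called gene on any of the lists examined. Of 9 azurophil granule genes measured, 0 were higher and 3 lower at an unadjusted p under 0.05, with a median log2 fold change of -0.01. These were *Ctsc*, the protease that activates the granule serine proteases (-0.27, limma adjusted p = 0.299), *Ctsg*, cathepsin G (-0.28, limma adjusted p = 0.275), and *Serpinb1a*, a cytosolic inhibitor of elastase that the inhibitor list also holds (-0.62, limma adjusted p = 0.246). *Prtn3*, proteinase 3, differed by -0.09 (limma adjusted p = 0.791).

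Of the 15 specific granule genes measured, *Olfm4* was the only one at an unadjusted p under 0.05, and the median was 0.02. *Cd177*, a surface partner of proteinase 3 on neutrophils, was at 4.64 in knockout and 4.47 in wild-type prostate, and *Chil3*, a chitinase-like protein, at 3.78 and 3.58. *Hp* and *Orm1*, the acute-phase proteins haptoglobin and orosomucoid, were named after their values were seen, because they were high on the arrays numbered 1. *Orm1* was 10.57 on wild-type array 1, 7.87 on knockout array 1 and 4.44 to 5.96 elsewhere, and *Hp* was 10.68, 9.26 and 5.74 to 8.14. For both, wild-type array 1 was thus the higher, the reverse of *Ltf* and *Lcn2*. Of 8 gelatinase granule and secretory vesicle genes, 0 passed an unadjusted p under 0.05 in either direction, with a median of 0.07, and *Cd14*, the lipopolysaccharide co-receptor, differed by 0.23 and *Slc11a1*, a metal transporter of phagosomes, by 0.31.

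Of the 9 neutrophil markers, 1 was higher and 1 lower at an unadjusted p under 0.05, with a median of 0.09. The means of 6 of the 9, *Stfa2l1* among them, lay under log2 5 in both genotypes, where a probe set may read little transcript. *Stfa2l1*, a stefin of myeloid cells, was higher by 0.47 (limma adjusted p = 0.337) and *Il1r2*, the decoy receptor for interleukin 1, was lower by 1.77 (limma adjusted p = 0.349), and neither was called. Of 7 transcription factors of granule genes, *Cebpb* was higher (0.23, limma adjusted p = 0.364) and *Gfi1* lower (-0.17, limma adjusted p = 0.345) at an unadjusted p under 0.05, and the median was -0.10. *Gfi1* read low in both genotypes, at 3.39 in knockout and 3.56 in wild-type prostate. *Cebpe*, the factor most closely tied to specific granules, was not analysed here. *Cebpa* was 11.07 ± 0.41 in knockout and 10.98 ± 0.35 in wild-type prostate (SD, n = 4 each).

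Signals and partners outside the neutrophil were likewise uncalled. Of 10 recruitment signals 0 passed an unadjusted p under 0.05, with a median of 0.00, and 6 of the 10 had means under log2 5 in both genotypes. *Csf3*, granulocyte colony-stimulating factor, was 5.27 on knockout array 1 and 4.17 to 4.37 elsewhere. That array also stood apart downwards: against the mean of the other 3 knockout arrays the log2 difference was -2.92 for the chemokine gene *Cxcl15*, and, on the other lists, -3.59 for the inhibitor *Timp4*, -3.22 for the urothelial gene *Upk1a* and -2.05 for the lectin *Itln1*, genes named after their values were seen. Of 10 receptors of granule proteins 0 passed either, with a median of 0.01. The calprotectin receptors *Tlr4* and *Ager* differed by 0.14 and 0.06, and the lipocalin 2 receptor *Slc22a17* by -0.29 (limma adjusted p = 0.473). Of 11 granule protease inhibitors, 3 were higher and 1 lower at an unadjusted p under 0.05, with a median of 0.18. The higher were *Timp3*, an inhibitor of metalloproteinases (0.46, limma adjusted p = 0.152), *A2m*, a broad protease trap (0.22, limma adjusted p = 0.288), and *Reck*, a membrane inhibitor of metalloproteinases (0.30, limma adjusted p = 0.347). *Slpi*, an epithelial inhibitor of elastase named after its values were seen, was 10.56 on knockout array 1, 8.78 on knockout array 3, 8.50 on wild-type array 1 and 5.98 to 7.48 elsewhere.

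**Figure D5:**
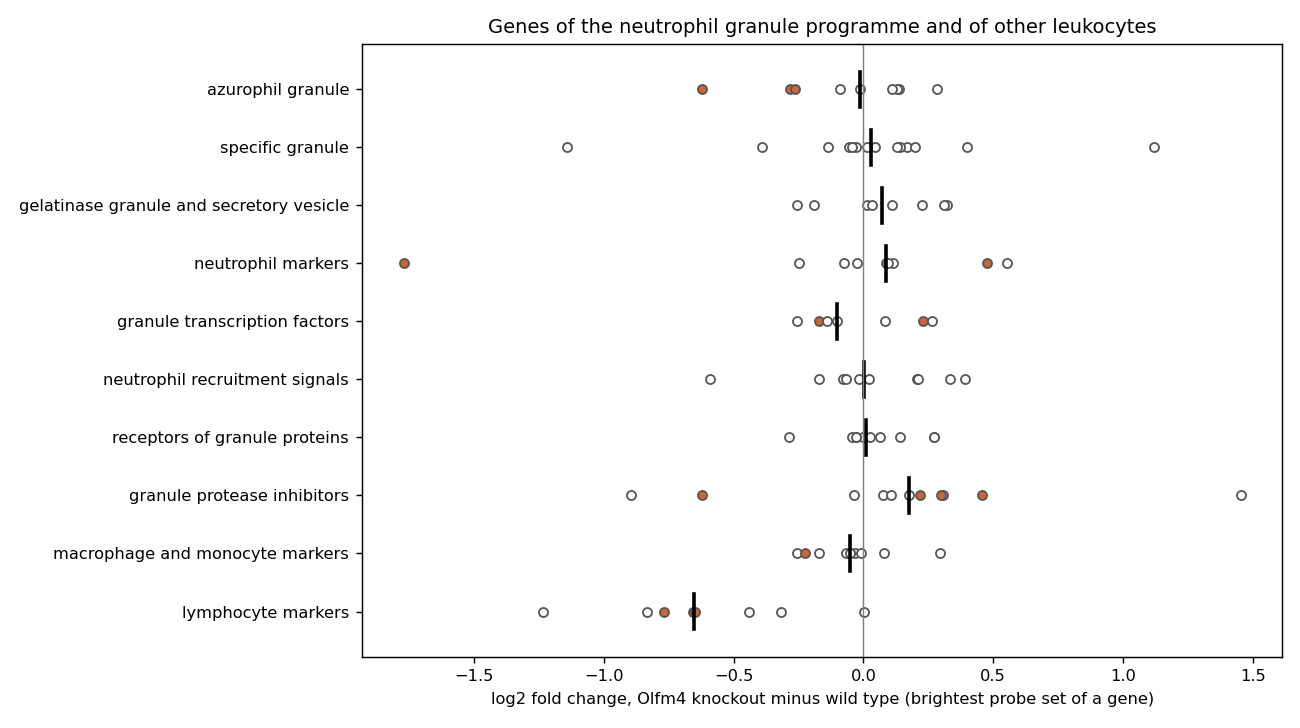
Log2 fold change (*Olfm4* knockout minus wild type) of the genes of 10 lists, a circle per gene by its brightest probe set, filled where the unadjusted limma p was under 0.05, with the list median as a bar. *Olfm4* (-7.37) is left off the specific granule row and its median. The granule lists centre near 0, and the lymphocyte markers lie lowest, with a median of -0.65. Means of 5 of 9 azurophil genes and 5 of 15 specific granule genes lay under log2 5 in both genotypes.

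Other blood cells in the tissue were described in the same way. Of 6 pan-leukocyte markers 0 passed an unadjusted p under 0.05, with a median of -0.12. Of 11 macrophage and monocyte markers, *Mertk*, a receptor for apoptotic cells, was lower (-0.23, limma adjusted p = 0.345) and none higher, with a median of -0.05. *Cd3e*, *Cd3g* and *Cd8a* were lower among 8 lymphocyte markers at an unadjusted p under 0.05, by 0.66, 0.65 and 0.77 on the log2 scale, and none was called, with limma adjusted p from 0.281 to 0.337. *Prg2* was lower among 4 eosinophil markers (-0.53, limma adjusted p = 0.248), but all 4 had means under log2 5 in both genotypes, where a probe set may read little transcript. Of the mast cell markers 0 of 7 passed and of the erythrocyte markers 0 of 6. The part of these blood cells in the granule gene values was not tested.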

How the data were processed

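The 8 arrays measured total RNA of whole prostate. The labels give Trizol extraction and the study's methods the RNeasy Plus Mini Kit, and the methods speak of more mice per genotype than the 4 arrays of each genotype used here. The authors made the deposited log2 values with RMA (version not given in the sources used here). Arrays of 15-month-old mice were not analysed here. The value table held 8 columns, one per array, and 0 columns of other samples. Groups and replicate numbers came from the sample labels, and p-values measure the spread between arrays of separate mice.

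Of 45101 probe sets, 64 controls were left out. Of the 45037 others, 34945 had 1 gene symbol in the platform annotation, 932 had several and 9160 had none. The RefSeq gene table (GRCm38.p6) held 18032 of the 18193 genes. The 2-sided test of genotype was that of limma 3.58.1 (R 4.3.3, lmFit followed by eBayes). It held a term for array day because each day had both genotypes, and used Benjamini-Hochberg adjustment over 45037 probe sets. The methods name ANOVA in Partek with no covariates, which was run as an alternative. The steps were tested on simulated data first. A gene was represented by its brightest probe set, the one of highest mean value. Means are given ± SD, and intervals are at 95%. Depth has no counterpart on arrays, whose number limits the precision.

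Members and gene lists were chosen with earlier results of these data known. Named genes were *Olfm4*, all members, up to 4 genes of each list with the smallest p, any called list gene, the 8 genes most correlated with the mean of *S100a8* and *S100a9* and the 5 with *Camp* and *Ngp* each, and list genes that define a cell type. Others are marked as chosen after their values were seen. The alternatives changed the day term, the replicate block, the test, the variance model, array weights, the normalization, a filter on low values (mean log2 of at least 5 or 7), the arrays used and the probe set of a gene.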

Additional observations from a re-analysis of the deposited data

Results flagged for a closer look

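In each genotype a gene was marked where the gap between its highest or lowest array and the nearest array, divided by the range of the 4 arrays, passed Dixon's 95% critical value. Of 100 sets of 4 arrays examined, 14 passed. Chance gives about 1 in 20 for independent sets, a rate that does not apply here, since the genes vary together and some, such as *Orm1*, were named for their values. Among the granule genes, *S100a8* on wild-type array 1 (6.08, nearest array 5.05) had a ratio of 0.965, *Elane* on knockout array 3 (3.49, nearest 3.72) of 0.936 and *Ngp* on wild-type array 4 (5.82, nearest 5.74) of 0.885. The gaps of *Elane* and *Ngp* were small in absolute terms, since the other arrays lay close together.

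Knockout array 1 stood apart for *Clec4d* (ratio 0.911), *Csf3* (0.869) and *Lrp2* (0.87), a lipocalin receptor read at 4.54 there. Wild-type array 1 stood apart for *Orm1* (0.842) and, as the lowest, for *Mertk* (0.836). The remaining cases were *Ms4a3*, a membrane protein of granulocyte precursors, on knockout array 4 (0.989), *Tlr4* on knockout array 2 (0.917), *A2m* on wild-type array 3 (0.835), *Cd8a* on knockout array 4 (0.969) and wild-type array 3 (0.903), and *Ptprc* on wild-type array 3 (0.894). *Ltf* and *Lcn2* on knockout array 1 did not pass, because the other 3 arrays of the group were themselves spread. What set these arrays apart was not tested.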

How the results depend on the processing

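The fall of *Olfm4* lay between -7.48 and -7.26 on the log2 scale under the 19 of 21 alternatives that gave it a value, and 0 granule probe sets were called by limma or ANOVA under the 20 that counted them. A mean of at least log2 7 kept only *Lcn2* and *Mmp9* of the 10 genes and left *Olfm4* out, and averaging the probe sets of a gene concerned only the fold changes of the 10 genes. Of 198 log2 fold changes of the 10 genes under alternatives, 0 passed an adjusted p under 0.05 and 8 changed sign. *Lcn2* was -0.29 on day 1 alone, -0.015 without both arrays numbered 1 and -0.34 without knockout array 1, and leaving out 1 array at a time gave -0.34 to 0.86. *Mmp9* was -0.18 on day 1 alone and -0.036 without both arrays numbered 1. *Camp* was 0.12 on day 1 alone and 0.0068 without knockout array 2 and 0.0082 without wild-type array 2, and leaving out 1 array at a time gave -0.13 to 0.0082. The cause was not tested.

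The count of granule probe sets at an unadjusted p under 0.05, which was 1, became 0 with ANOVA, with a filter at a mean of log2 7, on day 1 alone, on day 2 alone and without both arrays numbered 1, and 0 to 2 when 1 array was left out. The count of all probe sets called, 50, became 24 with ANOVA, 4 on day 1 alone, 4 on day 2 alone and 17 to 43 when 1 array was left out, and it rose to 73 with an intensity trend and robust variance, 71 with no day term, 68 with the filter at log2 7 and 62 with array weights. With the replicate number as a block in place of array day, the replicate block gave 20 called probe sets and 3 granule probe sets at an unadjusted p under 0.05, namely *S100a8* (limma adjusted p = 0.290), *S100a9* (limma adjusted p = 0.370) and *Ltf* (limma adjusted p = 0.363). The labels do not say what a number shares, and arrays of the same number had correlated deviations of 0.34, 0.17, 0.04 and -0.01, so the numbers were not taken as pairs. With 4 arrays per genotype the intervals of *Ltf* and *Lcn2* do not exclude large differences.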
